A study of Mus musculus with 9 samples.

Results

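The genes described here encode the subunits, activators and assembly chaperones of the proteasome. They were the protein-coding genes of GENCODE mouse release M1 whose symbols start with Psma, Psmb, Psmc, Psmd, Psme, Psmf or Psmg followed by a number, and each was examined for binding sites of the deubiquitinase BAP1. The rule gave 50 symbols with 52 gene identifiers, out of 22367 protein-coding genes. It used the symbol alone and no measured value. Psmb9 and Psmd14 each carried 2 identifiers, which were treated as a single gene. A pair of symbols matched the rule without naming a proteasome protein. They were Psmc3ip, which encodes a partner protein of meiotic recombination, and Psme2b-ps, whose symbol carries the suffix of a pseudogene although its annotated type is protein-coding.

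The proteasome is the large protease that degrades ubiquitinated proteins in the cytosol and nucleus. Its 20S core is a barrel in which rings of beta subunits, some of them proteolytic, lie between rings of alpha subunits, and the 19S regulatory particle binds ubiquitinated substrates, removes the ubiquitin and unfolds the protein with a ring of ATPases. Psmb5, Psmb6 and Psmb7 carry the active sites of the constitutive core. In the immunoproteasome, induced by interferon and abundant in many haematopoietic cells, they are replaced by Psmb8, Psmb9 and Psmb10, and in cortical thymic epithelium Psmb11 takes the place of Psmb5 or Psmb8. BAP1 itself removes the ubiquitin of the H2AK119ub mark on histone H2A, and acts on other nuclear proteins as well.

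BAP1 binding had been mapped by ChIP-Seq in Ba/F3, a mouse B cell precursor line, and the series holds 9 samples. The peaks came from 2 immunoprecipitations, each sequenced a single time. An anti-BAP1 antibody (52.8 μg) was applied to wild type cells, and the M2 antibody to FLAG (5 μg) to cells with stable expression of murine BAP1 carrying a triple FLAG tag. Input DNA of the same cells served as the control. The other samples, the H2AK119ub immunoprecipitations of wild type cells and of the Bap1 knockout clones KO3 and KO4 made with CRISPR-Cas9, and the inputs of those clones, were not analysed here. As a model the series is limited to a cell line, in which the tagged protein is expressed from a transgene in addition to the cell's own and each knockout is a clone. The identity of the line could not be checked against marker genes, because no expression values were used.

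The data are 1 list of 13164 peaks, each 200 bp wide, with no score, height or sample of origin. A peak was counted for a gene when its middle lay within 1 kb of a transcription start site (TSS) of any of the gene's transcripts, which is called gene-proximal below. Positions are on mouse build mm9. Since the list has no replicates and the depth of the samples is unknown, each gene either has a peak or has none in this list, and no peak does not show that BAP1 was absent. Intervals of shares are 95% Wilson intervals, which cover counting error only, and genes are not replicates of each other, so no test was made.

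BAP1 peaks lay at nearly every constitutive proteasome gene, and at 1 of the 4 immune and thymus genes. Of the 50 genes, 45 had a gene-proximal peak (90.0%, interval 78.6% to 95.7%), while among all protein-coding genes 8850 did (39.6%). The genes other than Psmb8 to Psmb11 are called constitutive here, though they include the testis-specific Psma8 and the interferon-induced Psme1 and Psme2. Without Psmb8 to Psmb11, 44 of 46 had a peak (95.7%, interval 85.5% to 98.8%). Without Psmc3ip and Psme2b-ps as well, it was 43 of 44 (97.7%), the exception being Psma8. Of the 4 immune and thymus genes, Psmb9 alone had a gene-proximal peak (25.0%, interval 4.56% to 69.9%). That interval is wide and holds the 39.6% of all protein-coding genes. The count was 2 of 4 with a window of 2 kb or 5 kb, which adds Psmb10, and 0 of 4 when peaks near another gene's TSS were left out. The 5 genes without a gene-proximal peak were thus Psma8, Psmb8, Psmb10, Psmb11 and Psme2b-ps.

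The promoters of the catalytic beta subunits are shown so that each immune or thymus gene can be set beside its constitutive counterpart. Each runs from 150 bases before the outermost annotated TSS to 30 bases from it on, on the strand of the gene, in mm9. Capitals mark matches to any of 11 sequence motifs, whose letters are given with their shares further on. Psmb9 is shown from its outermost TSS on only, because the bases before it overlap an exon of Tap1 on the other strand. The sequences do not all lie inside a peak. The peak covered 110 of the 180 bases of Psmb5 and all 180 of Psmb6, and none of the bases shown of Psmb7, Psmb8, Psmb9, Psmb10 and Psmb11.
Psmb5, chr14:55236822-55237001, minus strand: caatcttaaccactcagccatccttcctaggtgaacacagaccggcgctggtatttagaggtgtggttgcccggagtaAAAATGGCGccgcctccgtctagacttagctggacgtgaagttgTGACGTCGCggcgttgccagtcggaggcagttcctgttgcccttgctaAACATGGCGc
Psmb6, chr11:70338719-70338898, plus strand: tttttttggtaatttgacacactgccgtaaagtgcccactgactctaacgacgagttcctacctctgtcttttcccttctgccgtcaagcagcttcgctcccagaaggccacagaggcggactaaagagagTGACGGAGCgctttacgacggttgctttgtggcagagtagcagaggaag
Psmb7, chr2:38499578-38499757, minus strand: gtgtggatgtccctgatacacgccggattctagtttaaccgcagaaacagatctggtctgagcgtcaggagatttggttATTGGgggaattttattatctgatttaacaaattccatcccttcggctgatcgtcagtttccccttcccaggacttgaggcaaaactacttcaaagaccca
Psmb8, chr17:34334516-34334695, plus strand: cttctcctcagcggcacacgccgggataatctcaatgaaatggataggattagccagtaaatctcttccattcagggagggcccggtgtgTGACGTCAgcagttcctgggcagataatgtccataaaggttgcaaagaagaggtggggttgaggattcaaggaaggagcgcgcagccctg
Psmb9, chr17:34324680-34324709, minus strand: cgggaacccgctcgagctggtggagctgac
Psmb10, chr8:108462263-108462442, minus strand: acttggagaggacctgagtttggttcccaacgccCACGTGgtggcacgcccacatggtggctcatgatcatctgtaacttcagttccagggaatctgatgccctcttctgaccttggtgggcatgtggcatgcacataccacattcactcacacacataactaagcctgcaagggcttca
Psmb11, chr14:55243997-55244176, plus strand: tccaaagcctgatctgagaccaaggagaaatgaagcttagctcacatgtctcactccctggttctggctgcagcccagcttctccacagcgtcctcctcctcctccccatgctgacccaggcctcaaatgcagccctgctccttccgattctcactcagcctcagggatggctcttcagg

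The matches in capitals differ between the bases shown, which depend on the annotated TSS. Positions of matches are counted from the TSS of the longest coding transcript, which is base 0. At Psmb5 and at Psmb6 the outermost TSS, which bounds the bases shown, lies at base -19 on this count. Psmb5 held an NFE2L1 type element, TGACGTCGC, between bases -47 and -39, together with a pair of YY1 type matches. Psmb6 held such an element, TGACGGAGC, between bases -38 and -30. NFE2L1 is the transcription factor known to raise proteasome genes when proteasome activity is limiting, and it binds elements of this kind together with small MAF proteins. Psmb8 held a CRE type match, Psmb10 an E-box and Psmb7 an NF-Y type match in the bases shown, and Psmb11 held no match in them. The peak of Psmb7, outside the bases shown, held ETS, YY1 and SP type matches. For Psmb8, the TSS of another annotation, RefSeq, lay 405 bp from the nearest TSS used here. The RefSeq TSS of Psmb9 lay 8 bp from a TSS used here but outside the bases shown. The middle of the Psmb9 peak was 93 bp upstream of that RefSeq TSS.

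The constitutive catalytic subunits each had a single gene-proximal peak close to a TSS. Psmb5, the chymotrypsin-like subunit, had its peak at chr14:55236732-55236931, with the middle 1 bp downstream of the TSS, the smallest distance of any proteasome gene. The peak of Psmb6, the caspase-like subunit, lay at chr11:70338713-70338912, with the middle 57 bp upstream. Psmb7, the trypsin-like subunit, had its peak at chr2:38499330-38499529, 20 bp upstream of the nearer of its 2 annotated TSSs and 178 bp downstream of the TSS of the transcript with the longest coding sequence. All 3 peaks covered a TSS of their gene.

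Their immune counterparts were placed differently. Psmb8, which replaces Psmb5, had no peak nearer than 7445 bp. That peak, at chr17:34342900-34343099, lay downstream of Psmb8 and within 1 kb of TSSs of the peptide transporter gene Tap2 and of Gm20496. Psmb9, which replaces Psmb6, had a peak at chr17:34324269-34324468, 70 bp upstream of the nearest of its 7 TSSs and 329 bp downstream of the TSS of its longest coding transcript. The same peak lay 130 bp upstream of the nearest TSS of Tap1, which encodes the partner of Tap2 and is transcribed in the opposite direction from a TSS 18 bp away from a TSS of Psmb9. The peak can therefore not be assigned to Psmb9 or to Tap1. The Psmb8 and Psmb9 genes lie in a cluster of antigen processing genes. Between Psmb9 and Tap2, the listed peaks were at the Psmb9 and Tap1 promoters and inside Tap2, and the next peak on the other side of Psmb9 lay 12.3 kb from its nearest TSS, with no TSS of any gene within 1 kb.

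Psmb10, which replaces Psmb7, had a peak within the gene but not at its TSS. The peak, at chr8:108460903-108461102, had its middle 1290 bp downstream of the only annotated TSS, in intron 4 of a transcript with 8 exons. It overlapped no exon, and no gene had a TSS within 1 kb of it. The next peaks on either side lay 27.8 kb upstream, at Slc12a4, and 37.9 kb downstream, at Pskh1. The sequence under the intron peak is shown because among Psmb8 to Psmb11 it is the only peak inside a gene and away from an annotated TSS, and its capitals mark an NFE2L1 type element, a pair of ETS type matches and an SP type match. It holds 9 CpG dinucleotides in 200 bases, beside 3 in the 180 bases shown at the TSS of Psmb10.
Psmb10 intron peak, chr8:108460903-108461102, minus strand: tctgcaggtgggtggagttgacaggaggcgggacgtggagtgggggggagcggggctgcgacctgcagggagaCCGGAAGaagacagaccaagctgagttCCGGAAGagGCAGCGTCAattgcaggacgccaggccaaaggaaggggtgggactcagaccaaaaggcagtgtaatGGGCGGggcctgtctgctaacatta

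Psmb11, the thymus subunit, had no peak of its own. Its TSS lies 7316 bp from the middle of the nearest peak, which is the Psmb5 peak, since the genes are neighbours on chromosome 14 and are transcribed in opposite directions. On the other side, the nearest peak was 16.1 kb away, at Cdh24 and Gm17606. The map of the Psmb9, Psmb5 and Psmb10 loci shows these distances to scale.

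**Figure D1:**
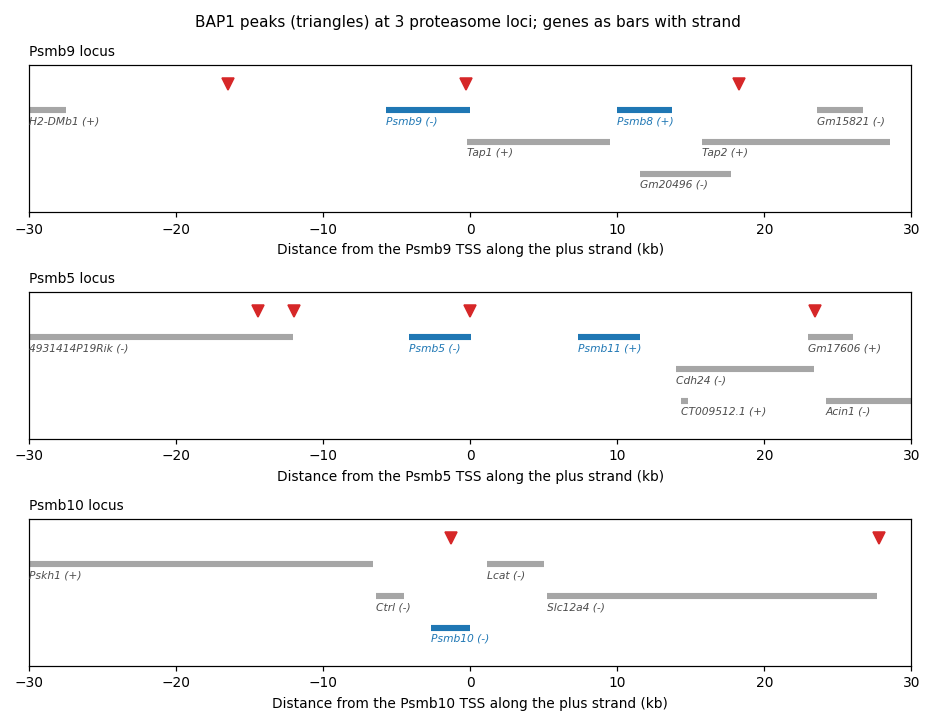
Protein-coding genes (bars, with strand) and BAP1 peaks (triangles at the middle of each peak) around the TSS of Psmb9, Psmb5 and Psmb10, with the distance from that TSS along the plus strand in kb on the x axis; proteasome genes are in blue. Peaks sit at the shared Psmb9 and Tap1 promoters and at the Psmb5 TSS, 1.29 kb inside Psmb10, and at none of the TSSs of Psmb8, Psmb10 and Psmb11.

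Every other constitutive beta subunit gene had a gene-proximal peak, so that 7 of the 7 genes from Psmb1 to Psmb7 were occupied. Psmb1, Psmb2, Psmb3 and Psmb4 encode structural subunits with no active site. Their nearest peaks lay 55 bp, 42 bp and 26 bp upstream for Psmb1, Psmb2 and Psmb3, and 13 bp downstream for Psmb4. Psmb3 had 2 gene-proximal peaks, with middles 189 bp apart.

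Among the alpha subunits, which form the outer rings and the gate of the core, 7 of 8 genes had a gene-proximal peak. The gene without a peak was Psma8, the testis-specific subunit that replaces Psma7 in male germ cells, whose nearest peak lay 23.4 kb upstream, at Ss18. Psma1, Psma4 and Psma7 had their nearest peak 31 bp, 23 bp and 29 bp upstream of a TSS, and Psma3 and Psma6 had it 6 bp and 8 bp downstream. Psma2 and Psma5 lay at the far end of the range. The nearest peak of Psma2 lay 149 bp upstream of its single TSS, the largest distance of all 45 genes, and that of Psma5 98 bp downstream.

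In the 19S regulatory particle, every gene had a gene-proximal peak. This held for 6 of 6 ATPases, Psmc1 to Psmc6, which form the ring that unfolds substrates. Their nearest peaks all lay upstream, from 12 bp at Psmc5 to 97 bp at Psmc4 and 99 bp at Psmc6. It also held for 14 of 14 non-ATPase genes. Among these, Psmd4 encodes a ubiquitin receptor and had its peak 30 bp upstream, and Psmd14 encodes the deubiquitinase of the lid and had a pair of peaks, the nearer 61 bp upstream. The largest scaffold subunits of the base, Psmd1 and Psmd2, had peaks 77 bp and 23 bp upstream of a TSS. For Psmd1 that TSS is internal to the gene. Its peak lay in a coding exon, 175 bp downstream of the TSS of the longest coding transcript. The lid genes Psmd3 and Psmd6 had their peaks 4 bp upstream of a TSS, and the lid gene Psmd8 had its peak 113 bp downstream, inside coding sequence and not over the TSS. The remaining lid genes were Psmd7, with its peak 34 bp downstream, and Psmd11, Psmd12 and Psmd13, with peaks 17 bp, 51 bp and 41 bp upstream. The Psmd13 peak lay 405 bp downstream of the TSS of its longest coding transcript. Psmd5, Psmd9 and Psmd10 encode chaperones that assemble the base, and their peaks lay 88 bp upstream, 47 bp downstream and 13 bp upstream.

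Activators that open the core, and an inhibitor, were occupied in 5 of 5 genes. Psme1 and Psme2 encode the subunits of the interferon-induced activator PA28, and their peaks lay 3 bp downstream and 27 bp upstream of a TSS. Like Psmb8 to Psmb10 they are known to be raised by interferon, and they differed from Psmb8 and Psmb10 in having a peak at the TSS. Psme3, the nuclear relative of PA28, had its nearest peak 4 bp downstream, Psme4 36 bp downstream, and Psmf1, the inhibitor PI31, 23 bp upstream. The chaperones that assemble the alpha ring, Psmg1 to Psmg4, were occupied in 4 of 4 genes, with peaks 8 bp to 78 bp upstream. Of the symbols that name no proteasome protein, Psmc3ip had a peak 3 bp upstream of its TSS, and Psme2b-ps had none within 119534 bp.

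Genes that work with the proteasome also mostly had a peak, beside 39.6% of all protein-coding genes. All 15 annotated genes of a list of proteasome-associated factors had a gene-proximal peak, among them the ubiquitin receptor Adrm1 (45 bp upstream), the assembly factor Pomp (19 bp upstream) and the deubiquitinases Usp14 (11 bp upstream) and Uchl5 (73 bp upstream). All 8 genes of the NFE2L1 pathway did too, including Nfe2l1 itself (87 bp upstream) and Ddi2 (56 bp upstream), the protease that activates it. In the COP9 signalosome, a complex built like the lid of the regulatory particle, it was 9 of 9 genes. Of 9 antigen processing genes, 8 had a gene-proximal peak and Erap1, which trims peptides in the endoplasmic reticulum, had none nearer than 75980 bp. For Tap2 the peak lay 954 bp from the nearest TSS, close to the limit of 1 kb. Among large families, the share was 94.0% of 83 cytosolic ribosomal protein genes (78 with a peak) and 77.8% of 36 ubiquitin-conjugating enzyme genes (28 with a peak). The share at constitutive proteasome genes was thus within a few points of that at ribosomal protein genes, with overlapping intervals (86.7% to 97.4% for the latter).

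**Figure D2:**
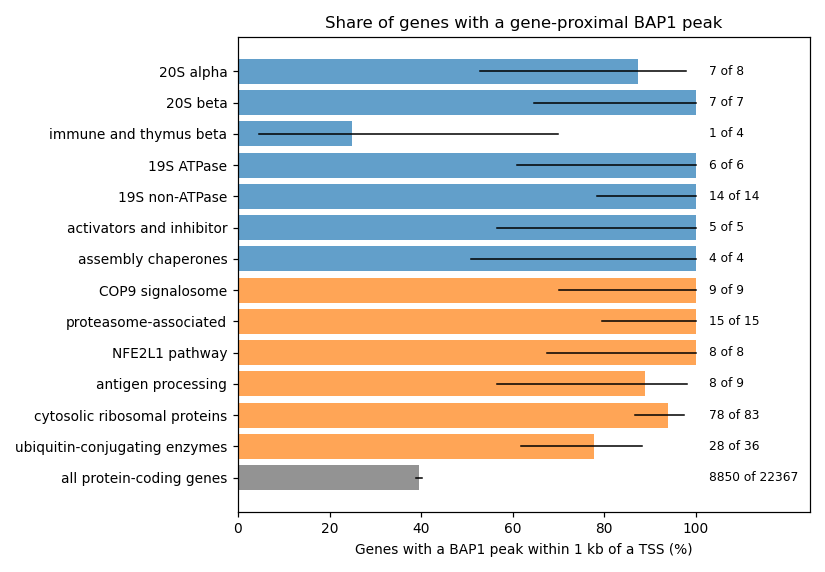
Share of genes with a BAP1 peak within 1 kb of a TSS (x axis, percent), for proteasome genes by role (blue), related gene lists (orange) and all protein-coding genes (grey), with counts at the right and lines for the 95% Wilson interval. Of the roles plotted, the immune and thymus beta subunits stood at 25.0% and the others at 87.5% or more, beside 39.6% of all protein-coding genes; Psmc3ip and Psme2b-ps are not plotted.

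The peaks lay very close to the TSS. Over the 45 genes, the middle of the nearest peak lay at a median of -26.0 bp, where a negative value is upstream, with quartiles of -51.0 and -3.00 bp, while the median over all 8850 protein-coding genes with a peak was -32.5 bp. The peak was upstream of the TSS in 34 of the 45 (75.6%), beside 75.0% of protein-coding genes. Within 100 bp lay 43 of the 45 (95.6%), the exceptions being Psma2 and Psmd8, beside 77.8% of protein-coding genes. The peak covered a TSS in 43 of them (95.6%), beside 77.7%. Part of such closeness depends on how many TSSs are annotated, with a median of 4.00 at proteasome genes with a peak and 3.00 at protein-coding genes with a peak. With 1 TSS per gene, that of the longest coding transcript, 86.7% of proteasome genes and 67.8% of protein-coding genes had the peak within 100 bp. By that TSS the peak was upstream in 66.7% of proteasome genes and 71.6% of protein-coding genes. Relative to the gene models, the middle of the nearest peak was upstream of the gene in 28 genes, in the 5' UTR in 14, in a coding exon in 2 (Psmd1 and Psmd8), and in an intron in 1 (Psmf1).

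**Figure D3:**
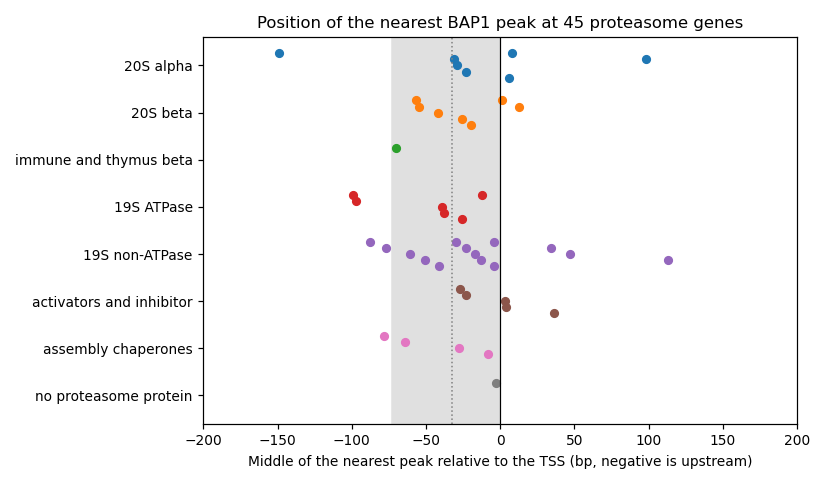
Position of the middle of the nearest peak relative to the nearest TSS (x axis, bp, negative upstream) for the 45 proteasome genes with a gene-proximal peak, by role, each point a gene; the grey band and dotted line are the quartiles and the median of all protein-coding genes with a peak. Points run from -149 bp (Psma2) to 113 bp (Psmd8), and 34 of 45 lie upstream.

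Few proteasome genes had more than 1 peak. A pair was found at 7 of the 45 genes (15.6%), beside 25.5% of protein-coding genes with a peak having more than 1. No proteasome gene had more than 2 peaks, which was rare in general, with 177 of the 8850 protein-coding genes. The genes with a pair were Psma2, Psma3, Psma7, Psmb3, Psmc3, Psmd14 and Psme3. The middles were 118 bp apart at Psma3, where the intervals overlap, and 668 bp apart at Psma7, the widest pair. At Psma2, Psma3, Psmc3, Psmd14 and Psme3 the pair lay on either side of a TSS, the peaks of Psma2 at 149 bp upstream and 167 bp downstream.

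Several proteasome genes shared their peak with a neighbour, so that the peak could not be given to a single gene. A gene-proximal peak of 13 of the 45 (28.9%) was also within 1 kb of a TSS of another annotated gene, beside 32.4% of protein-coding genes with a peak. The neighbour was protein-coding in 10 of them (22.2%, beside 25.4%). In all 10 the neighbour was transcribed in the opposite direction, away from the proteasome gene. The pairs were Psma2 with Mrpl32, Psma4 with AY074887, Psma7 with Ss18l1, Psmb9 with Tap1, Psmc2 with Dnajc2, Psmc5 with Ftsj3, Psmd10 with Atg4a, Psmd13 with Sirt3, Psme2 with Rnf31 and Psmg2 with Cep76. The distance between the TSSs was smallest for Psmb9 and Tap1 at 18 bp, and largest for Psme2 and Rnf31 at 595 bp. The other 32 genes with a peak had at least 1 to themselves.

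Most proteasome promoters are rich in CpG dinucleotides, a feature of broadly expressed genes. The CpG ratio, observed over expected in 500 bases on either side of the TSS of the longest coding transcript, had a median of 0.722 over the 50 genes (range 0.236 to 1.02) and of 0.553 over all protein-coding genes. It was 0.754 at the 45 genes with a peak and 0.393 at the 5 without, while the medians over protein-coding genes with and without a peak were 0.764 and 0.295. At a ratio of 0.6 or more, 41 of 41 proteasome genes had a peak, beside 70.1% of 10312 protein-coding genes. Below it, 4 of 9 did (44.4%), beside 13.5% of 12055. The 4 with a peak despite a low ratio were Psmd10 (0.425), Psme1 (0.403), Psme2 (0.430) and Psmg4 (0.595).

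The genes without a peak were all below that limit. The ratio was 0.580 at Psmb8, 0.564 at Psma8, 0.393 at Psmb11, 0.283 at Psmb10 and 0.236 at Psme2b-ps. The single immune gene with a peak, Psmb9, stood at 0.657, and the constitutive counterparts Psmb5, Psmb6 and Psmb7 at 0.783, 0.668 and 0.782. Psmb8 and Psma8 lay close under the limit. When the ratio was taken over 250 bases on either side they reached 0.637 and 0.601, and 42 of 44 proteasome genes at 0.6 or more then had a peak, beside 68.2% of protein-coding genes. CpG content moved together with the peaks at these genes, as it did over all protein-coding genes, and its part in the contrast of constitutive and immune genes was not tested.

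**Figure D4:**
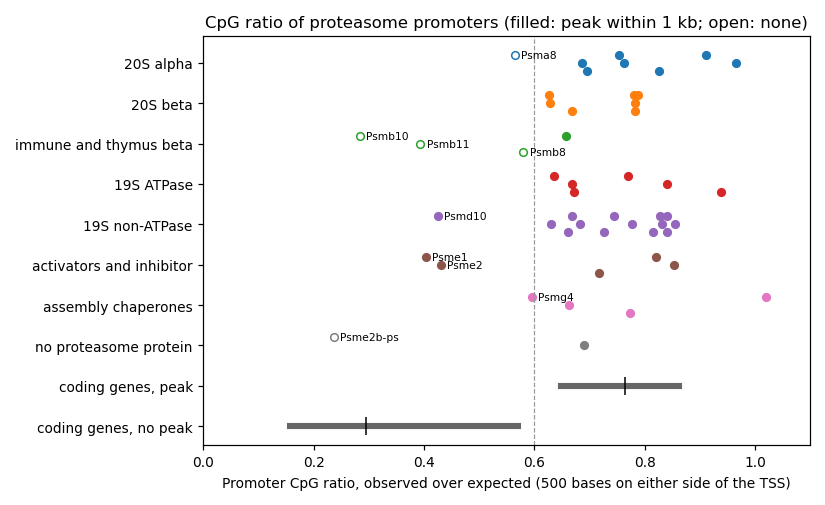
Promoter CpG ratio, observed over expected (x axis), of the 50 proteasome genes by role; filled points have a gene-proximal BAP1 peak and open points have none, and the bars at the bottom give the quartiles and median of all protein-coding genes with and without a peak. The dashed line is a ratio of 0.6, and the 5 open points, Psma8, Psmb8, Psmb10, Psmb11 and Psme2b-ps, lie to its left.

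The motifs were searched on both strands from 250 bases before to 50 bases from the TSS of the longest coding transcript on. They were NFE2L1 (TGACNNNGC), NF-Y (CCAAT), ETS (CCGGAAG), NRF1 for nuclear respiratory factor 1 (GCGCANGCG), YY1 (AANATGGCG), SP (GGGCGG), E-box (CACGTG), CRE (TGACGTCA), THAP11 (ACTACAANT), ISRE (GAAANNGAA) and NF-kappaB (GGANTTTCC). Matches of different motifs may overlap, as those of NF-Y and CRE do at Psmb2. A match describes letters in a window and is not a binding site.

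In this window the NFE2L1 type element was about as frequent in proteasome promoters as in all promoters. It was found in 7 of 50 (14.0%), beside 12.6% of all protein-coding promoters and 14.8% of those of genes with a peak. The 7 genes were Psmb2, Psmb5, Psmb6, Psmc6, Psmd7, Psmd9 and Psmd12. Each had a gene-proximal peak, as did 45 of all 50 proteasome genes. The peaks of Psmc6, Psmd7 and Psmd12 held no match of this element, which lies outside them. Besides Psmb5 and Psmb6 above, 3 of these 7 genes have the element within 150 bases before the TSS or 30 bases from it on. Their promoters are shown here with the same meaning of the capitals. The bases inside the nearest peak number 171 of 180 for Psmb2, 96 for Psmd7 and 82 for Psmd9.
Psmb2, chr4:126354724-126354903, plus strand: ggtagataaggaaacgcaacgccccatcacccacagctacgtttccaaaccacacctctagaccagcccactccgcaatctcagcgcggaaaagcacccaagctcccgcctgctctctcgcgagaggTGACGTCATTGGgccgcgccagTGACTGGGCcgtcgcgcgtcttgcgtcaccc
Psmd7, chr8:110112353-110112532, minus strand: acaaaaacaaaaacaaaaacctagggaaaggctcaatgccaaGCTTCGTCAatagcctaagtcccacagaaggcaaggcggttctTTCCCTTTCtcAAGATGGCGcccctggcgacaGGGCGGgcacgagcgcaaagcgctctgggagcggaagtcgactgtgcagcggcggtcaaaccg
Psmd9, chr5:123678049-123678228, plus strand: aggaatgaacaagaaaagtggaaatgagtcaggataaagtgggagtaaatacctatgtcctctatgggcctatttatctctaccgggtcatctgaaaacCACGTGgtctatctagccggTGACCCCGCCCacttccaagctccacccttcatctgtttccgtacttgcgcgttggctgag

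In these promoters the elements were TGACTGGGC in Psmb2, at the TSS, GCTTCGTCA in Psmd7 with the motif on the other strand, and TGACCCCGC in Psmd9, where it overlaps an SP type match. In Psmc6 and Psmd12 the elements GCTAAGTCA and GCTGTGTCA lay further upstream, from bases -232 and -203 on. Within 500 bases on either side of the TSS, 28 of the 50 genes held an NFE2L1 type element (56.0%), beside 33.9% of protein-coding genes.

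An ETS type match was present in 18 of 50 proteasome promoters (36.0%), beside 10.9% of all protein-coding promoters and 22.9% of those with a peak. Among the peaks themselves, it was in 34.6% of the 52 at proteasome genes and 20.2% of the 10073 gene-proximal peaks. The YY1 type motif was in 6 promoters (12.0%), those of Psmb5, Psmb6, Psmc5, Psmd7, Psmd8 and Psmd11, beside 3.23% of all promoters and 6.77% of those with a peak. SP type matches were in 30 (60.0%), beside 44.7% of all promoters and 68.9% of those with a peak, and NF-Y type matches in 18 (36.0%), beside 37.5% and 40.0%. NRF1 type matches were in 14.0%, beside 8.11% and 16.8%, and E-boxes in 14.0%, beside 7.77% and 10.9%. CRE type matches were at Psmb2 and Psmb8 (4.00%, beside 2.34% of all promoters and 3.98% of those with a peak). Those of THAP11 were at Psmd10 and Psmd11 (4.00%, beside 1.97% and 3.29%).

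The ISRE type motif, bound by interferon regulatory factors, was in 7 promoters (14.0%), beside 8.96% of all promoters and 6.87% of those with a peak. These were Psma4, Psmb3, Psmb4, Psmd4, Psmd7, Psmd9 and Psmg4. Psmb8 to Psmb11 held no match of these letters in the window, and at such a share over all promoters nothing can be read from 4 genes. An NF-kappaB type match was in no proteasome promoter, beside 1.34% of all promoters, a share at which few matches could be found in 50.

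**Figure D5:**
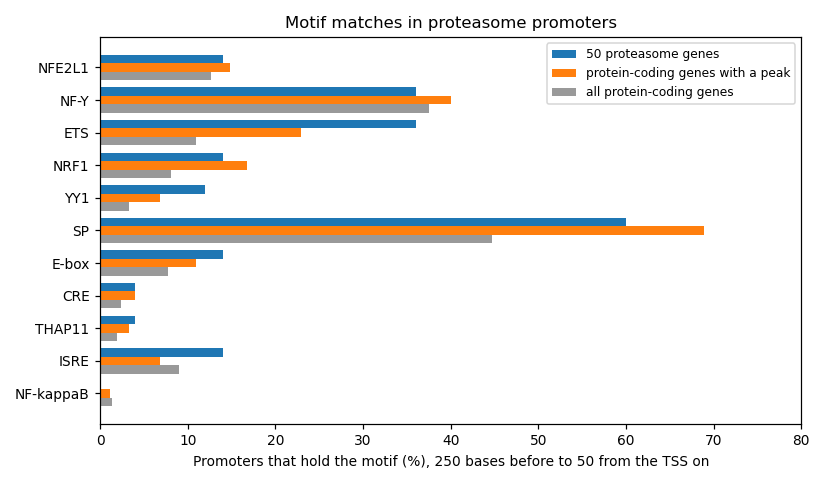
Share of promoters holding each motif (x axis, percent, 250 bases before to 50 bases from the TSS on), for the 50 proteasome genes (blue), protein-coding genes with a gene-proximal peak (orange) and all protein-coding genes (grey). The ETS type motif stood at 36.0%, 22.9% and 10.9%, and the NFE2L1 type element at 14.0%, 14.8% and 12.6%.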

How the data were processed

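BAP1 ChIP-Seq peaks were analysed. The deposited file holds chromosome, start, end and name of each peak, and no score, so no signal per gene was formed. Per the submitters' processing notes and the study's methods, the authors aligned the reads to mm9 (Bowtie 1.0.0) and called peaks over input DNA (MACS 1.4.2). The threshold and the way in which both immunoprecipitations were joined into 1 list are not given in the sources used here, and a stricter or looser threshold would change every share of genes with a peak.

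Peaks were placed on GENCODE M1 (NCBIM37, the same assembly as mm9), without mitochondrial genes. A gene was counted with a peak when the middle of 1 lay within 1 kb of any of its TSSs, and the signed distance was taken to the nearest TSS, negative when upstream. CpG ratios, motifs and printed promoters came from the genome sequence. Shares carry 95% Wilson intervals. Unmatched columns of single samples numbered 0. No test was made. The scripts were tested on simulated data, with Python 3.11.15, numpy 2.4.6 and matplotlib 3.10.9.

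The genes named with values were Psmb5 to Psmb11, the genes without a gene-proximal peak, those with the most peaks, those with the nearest and farthest peaks and those sharing a peak, and the others were named within their role. The genes, lists and motifs were chosen with earlier results of these data known. Alternatives were other windows, the edge of the peak, 1 TSS per gene, TSSs of protein-coding transcripts, merged peaks, peaks away from other genes and other sequence windows, and RefSeq TSSs, which were chosen after seeing the data. RefSeq promoters were matched exactly to mm9 and 41 of 50 genes had a match. Promoters on chromosome 18 were not printed. Sequences of the paralogous proteins were not analysed here.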

Additional observations from a re-analysis of the deposited data

How the results depend on the processing

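With windows of 250 bp, 500 bp, 2 kb or 5 kb, the nearest edge of the peak, 1 TSS per gene, or TSSs of protein-coding transcripts, 90.0% to 92.0% of the 50 proteasome genes had a peak, while the share of protein-coding genes ran from 36.4% to 42.5%. Windows of 2 kb and of 5 kb each gave 2 immune and thymus genes with a peak, because the intron peak of Psmb10 was then counted. Without peaks within 1 kb of another gene's TSS, the share was 64.0% over the 50 genes and 69.6% over constitutive genes. It left 0 immune and thymus genes, since the Psmb9 peak is shared with Tap1. The share over protein-coding genes is lower by this rule too. Of all 22367, 8850 had a gene-proximal peak and 5984 had one and shared none with another gene. Merging peaks within 500 bp left 0 genes with more than 1. An NFE2L1 type element was in 28 genes within 500 bases on either side. With RefSeq TSSs, 37 of 37 constitutive genes had a peak (100%), Psma8 and Psme2b-ps not being among the genes matched. Windows of 500 bp and 2 kb gave 6 and 9 genes with more than 1 peak. For these windows and for merged peaks, no such count over all protein-coding genes is given here. The other shares and medians moved by less than their interval or spread. A stricter threshold was not tried, because the deposited list used here has no score. No paired analysis was possible because the peaks form 1 list with no values per sample. Depth is unknown, and a gene without a peak may hold binding below the authors' threshold.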

Other observations

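A form of the NFE2L1 type element recurred inside 5 proteasome genes, in 4 of them at nearly the same distance from the TSS (Psma3 was the exception). It was picked out after the matches in these 50 genes had been seen, because it recurred. Its share in these genes is therefore raised by the choice and is no test of an excess. The exact letters GCTGAGTCA, searched on both strands in 500 bases on either side of the TSS, were in 5 of the 50 genes (10.0%), beside 1.24% of protein-coding genes and 0.960% of those with a peak. In all 5 it lay downstream of the TSS and in this reading, with the motif on the strand opposite to the gene. It began 239 bases from the TSS at Psmd2 and Psmd12, 243 at Psmd7, 244 at Psmd1 and 339 at Psma3. It lay in an intron at Psma3, Psmd1, Psmd7 and Psmd12, and at Psmd2 in an exon of a noncoding transcript. For the element in its general form, 20 of the 50 genes had a match in the 500 bases from the TSS on (40.0%), beside 19.2% of protein-coding genes and 20.7% of those with a peak, while 12 had a match in the 500 bases before the TSS (24.0%), beside 17.7% and 20.4%.

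Among the peaks at proteasome genes, 6 of 52 (11.5%) held an ISRE type match, beside 2.98% of the 10073 gene-proximal peaks. The motif was singled out from the 11 searched. The 6 peaks were at Psmb3, Psmb4, Psmd4, Psmd7, Psmf1 and Psmg4, and none was at Psmb9, Psme1 or Psme2.

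Of the annotated pseudogenes with proteasome symbols, 0 of 3 had a gene-proximal peak, beside 1.38% of all 5201 annotated pseudogenes, so that none in 3 is no result about them. The nearest peak lay 37.8 kb from Psmb5-ps, 2765 bp from Psmb6-ps and 8703 bp from Psmb7-ps2.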
